A study of Mus musculus with 12 samples.

Results

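The 40 genes described here carry the unfolded protein response and the integrated stress response, and were measured in M1-activated bone marrow-derived macrophages (BM-Mɸs) of animals labelled ErbB4myeKO, a myeloid knockout of Erbb4, and ErbB4FF, its floxed control. They were taken from the table by gene symbol and make up 40 of its 22243 genes. Of these 40, 39 had a mean of at least 1 TPM (transcript abundance scaled for transcript length and library total) over the 12 libraries and were among the 8780 genes tested. By role they are 5 stress sensors, 5 transcription factors, 6 feedback and stress effectors, 4 enzymes of amino acid and one-carbon metabolism, 11 ER chaperones and co-chaperones, 4 protein disulfide isomerases and 5 genes of ER-associated degradation.

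RNA sequencing covered 6 ErbB4myeKO mice (LysMCre/ErbB4-floxxed) and 6 ErbB4FF littermates (ErbB4-floxxed without the Cre), all on the C57Bl/6 background, with 1 of each genotype from each of 6 litters. Both genotypes therefore carried the floxed Erbb4 allele, and only ErbB4myeKO carried LysMCre, a recombinase placed in the lysozyme gene Lyz2 and active in myeloid cells. Bone marrow was grown with M-CSF from conditioned medium, and the cultures of both genotypes were primed with IFN-γ (100 U/mL, 16 h) before LPS (100 ng/mL, 6 h), so no resting culture is at hand and the levels are those of activated cells. Age and sex of the mice are not on the labels. The study used littermates of both sexes in its mouse experiments. Its own comparison was adjusted for litter and sex, and the main fit here for litter alone.

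Proteins that enter the endoplasmic reticulum (ER) are folded there by chaperones and oxidised by disulfide isomerases, and when unfolded protein builds up, sensors in the ER membrane start the unfolded protein response. IRE1α, encoded by Ern1, splices the mRNA of Xbp1, ATF6 is cut free as a transcription factor, and PERK, encoded by Eif2ak3, phosphorylates the translation factor eIF2α. PERK shares that substrate with PKR (Eif2ak2), which senses double-stranded RNA, and GCN2 (Eif2ak4), which senses a lack of amino acids, and the common outcome, slower translation with more ATF4 protein, is the integrated stress response. In macrophages this machinery serves the secretion of cytokines, and LPS acts on it. Sensor activity, Xbp1 splicing, and the amount of ATF4 and of cleaved ATF6 are set after transcription and are not measured by the level of these mRNAs.

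Upstream sequences give the letters through which these branches are known to act on their targets. RefSeq held a promoter window for 35 of the 40 genes on GRCm38.p6, and the 250 bases before the start were searched on both strands for 4 motifs. The first is the ER stress response element (ERSE; CCAAT, 9 bases, CCACG), bound by NF-Y with ATF6 or XBP1. The second is ERSE-II (ATTGG, 1 base, CCACG), the third the C/EBP-ATF response element (CARE; TGATGNAA), bound by ATF4 with a C/EBP partner, and the fourth the unfolded protein response element (UPRE; TGACGTGG). An ERSE was found in 8 of 35 windows (22.9%), those of Calr, Canx, Creld2, Dnajc3, Hsp90b1, Hspa5, Pdia6 and Syvn1, and in 0.113% of all 32851 windows. ERSE-II was found for Herpud1 alone (0.0304% of all windows), CARE for Asns, Chac1 and Herpud1 (3.45% of all windows) and UPRE for none (0.563% of all windows). A match is a run of letters and not a measured binding site. The windows of 4 genes are printed below from 5′ to 3′ with the match in capitals: Hspa5 as the gene with the highest level, and Canx, Asns and Dnajb9 as the 3 genes with the smallest p for genotype. The windows lie at chr2:34771840-34772089 (+ strand) for Hspa5, chr11:50325674-50325923 (- strand) for Canx, chr6:7693210-7693459 (- strand) for Asns and chr12:44210069-44210318 (- strand) for Dnajb9.
Hspa5: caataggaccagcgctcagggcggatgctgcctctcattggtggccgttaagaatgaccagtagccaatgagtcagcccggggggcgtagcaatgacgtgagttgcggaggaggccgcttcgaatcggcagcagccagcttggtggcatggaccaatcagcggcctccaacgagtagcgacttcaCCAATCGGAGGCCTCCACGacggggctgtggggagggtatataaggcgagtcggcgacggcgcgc
Canx: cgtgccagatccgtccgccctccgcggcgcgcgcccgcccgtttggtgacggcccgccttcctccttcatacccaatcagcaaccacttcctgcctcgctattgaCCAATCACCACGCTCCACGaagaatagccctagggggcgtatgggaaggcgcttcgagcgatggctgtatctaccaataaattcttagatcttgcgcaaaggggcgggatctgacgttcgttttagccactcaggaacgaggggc
Asns: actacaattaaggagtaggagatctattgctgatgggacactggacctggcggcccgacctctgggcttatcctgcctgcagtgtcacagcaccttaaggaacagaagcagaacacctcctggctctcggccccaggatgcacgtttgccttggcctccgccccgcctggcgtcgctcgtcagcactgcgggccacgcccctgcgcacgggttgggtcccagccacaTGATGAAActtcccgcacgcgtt
Dnajb9: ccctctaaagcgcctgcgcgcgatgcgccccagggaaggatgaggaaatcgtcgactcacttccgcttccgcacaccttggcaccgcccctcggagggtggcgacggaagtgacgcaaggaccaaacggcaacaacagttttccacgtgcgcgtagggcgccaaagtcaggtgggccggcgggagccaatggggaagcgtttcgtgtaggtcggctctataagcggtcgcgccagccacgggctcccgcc
The capitals mark an ERSE in Hspa5, 65 to 47 bases before the start, an ERSE in Canx, 145 to 127 bases before it, and a CARE in Asns, 23 to 16 bases before it. None of the 4 motifs lies in the window of Dnajb9, whose RefSeq start is 258 bases from that of the transcript in the table. That distance is 504 bases for Syvn1, one of the 8 genes with an ERSE, and at most 127 bases for the other genes.

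Facts of the whole series bear on every value below. The targeted gene did not follow the labels, as Erbb4 was between 0.280 and 0.852 TPM (median 0.623) in the libraries labelled ErbB4myeKO and between 0.372 and 0.716 TPM (median 0.404) in those labelled ErbB4FF, and was higher in the ErbB4myeKO littermate in 4 of 6 litters (exact permutation p = 0.25). That level is below 1 TPM and is taken over the whole transcript and not over the floxed part, so it does not check the deletion, and both names are used below as the labels give them. Lyz2 was lower in the ErbB4myeKO littermate in 5 of 6 litters and higher in litter 6, so results are also given without litter 6. Both libraries of litter 5 stood apart, with 71.4% and 74.7% of their TPM in the deposited transcripts where the other 10 libraries had 59.0% to 64.9%, and results are given without litter 5 as well. Macrophage markers were high in all libraries, with a sum over 8 genes of 8417 to 12521 TPM in ErbB4myeKO (median 10084) and 7179 to 15964 TPM in ErbB4FF (median 13939), lower in the ErbB4myeKO littermate in 5 of 6 litters. Lyz2, the gene that carries the Cre, makes up much of that sum (medians 4443 and 8097 TPM). Gene by gene, 4 of the 8 had a log2 fold change above 0 and 4 below, with a median of -0.05, and Mertk was higher and Fcgr1 lower in 6 of 6 litters (adjusted p = 0.642 and 0.603 in limma). The part of these marker levels in the results below was not tested. T and NK cell markers summed to at most 3.32 TPM. Neutrophil markers summed to 39.7 to 371 TPM in ErbB4myeKO and 40.1 to 185 TPM in ErbB4FF. Of 10 neutrophil markers 4 were tested, 2 with a log2 fold change above 0 and 2 below. S100a8 reached 253 TPM in ErbB4myeKO, and Retnlg was at 0 in all libraries. Camp was higher in 6 of 6 litters (adjusted p = 0.603 in limma). Of 8 dendritic cell markers 4 were tested, 2 above 0 and 2 below. Xcr1 was higher in 5 of 6 litters and Batf3 lower in 6 of 6. The part of these markers was not tested either. How deeply each library was read cannot be seen from TPM. Litter 3 had the fewest genes above 0 TPM, 10214 in ErbB4myeKO and 10910 in ErbB4FF. The other libraries had 11645 to 12985, and results are given without litter 3 too. The bulk libraries cannot tell fewer cells of a type from less RNA per cell.

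The 3 most abundant of the 40 genes were ER chaperones, and the 3 lowest were Eif2ak4, Chac1 and Eif2ak3. Mean levels in TPM, which allow for transcript length, ran from 1069 TPM for Hspa5 down to 0.992 TPM for Eif2ak4. Hspa5 (ENSMUSG00000026864, chromosome 2, 34771970 to 34777547 of GRCm38), which encodes BiP, the ER's main HSP70 chaperone and the brake on the ER sensors, was between 556 and 1619 TPM in ErbB4myeKO (median 1148) and between 621 and 1385 TPM in ErbB4FF (median 1062). Calr (calreticulin, a lectin chaperone of glycoproteins) followed at 481 to 704 TPM in ErbB4myeKO (median 607.0) and 429 to 692 TPM in ErbB4FF (median 596). Hsp90b1 (GRP94, the HSP90 of the ER, which folds Toll-like receptors) was at 338 to 765 TPM in ErbB4myeKO (median 563) and 369 to 599 TPM in ErbB4FF (median 504). The genotypes overlapped for these 3 genes, as they did for all 40. Of the 40 genes, 13 had their highest value in the ErbB4myeKO library of litter 2. The share of all genes is not given here for this count or for the overlap, so neither sets these genes apart.

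**Figure D1:**
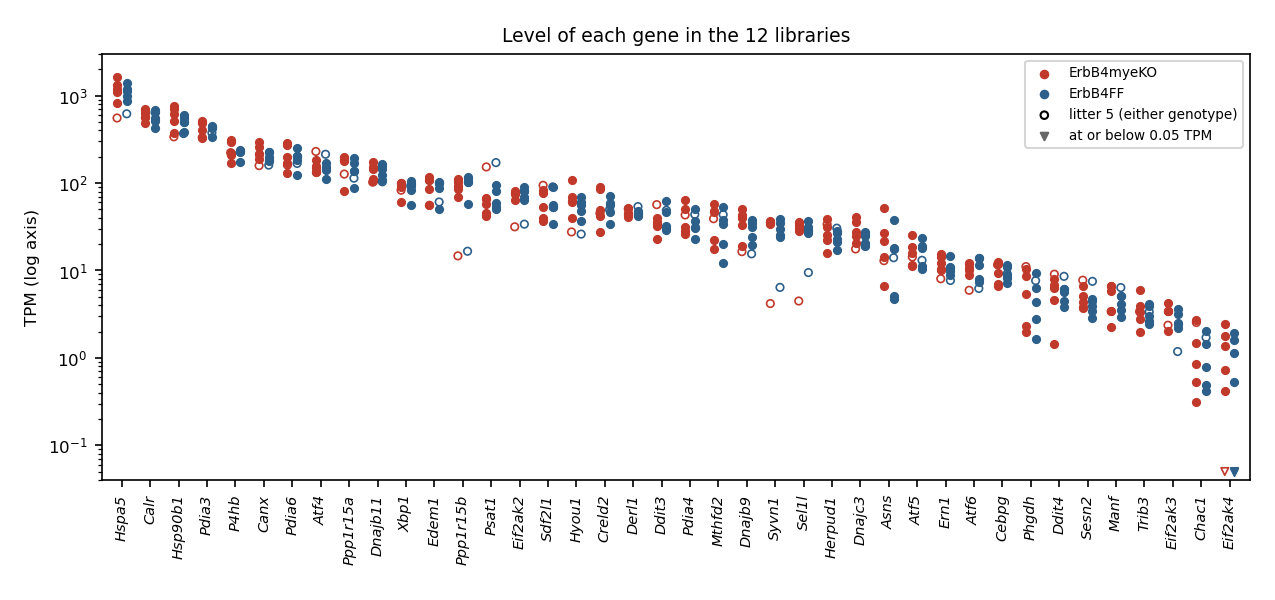
Levels of the 40 genes in the 12 libraries (TPM, log axis), ordered by mean, with ErbB4myeKO in red, ErbB4FF in blue and litter 5 as open symbols. Hspa5 is highest at a mean of 1069 TPM and Eif2ak4 lowest at 0.992 TPM, the genotypes overlap for every gene, and the open symbols of Ppp1r15b, Sel1l and Syvn1 lie far below the rest.

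No gene passed an adjusted p of 0.05 in limma with litter as a block, among the 40 or elsewhere (0% of 8780 genes, smallest adjusted p = 0.603), although 721 genes had an unadjusted p under 0.05. At that unadjusted threshold 3 of the 39 genes tested were higher in ErbB4myeKO, Asns, Dnajb9 and Canx, against 3.83% of all genes, and 0 of 39 were lower, against 4.38%. With no replicate block, or with a stand-in for sex beside the block, 0 of 39 had an unadjusted p under 0.05, in fits where 0.854% and 3.38% of all genes had one. None of the 40 was higher in all 6 litters (2.51% of all genes) or lower in all 6 (2.31%). The log2 fold changes of the 39 ran from -0.26 for Psat1 to 0.50 for Asns, and for 31 of them the 95% interval lay within 0.5 of 0 on either side. The share of all genes with such an interval is not given here. The smallest p that swapping littermates can give is 0.0312, and none of the 40 genes reached it.

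**Figure D2:**
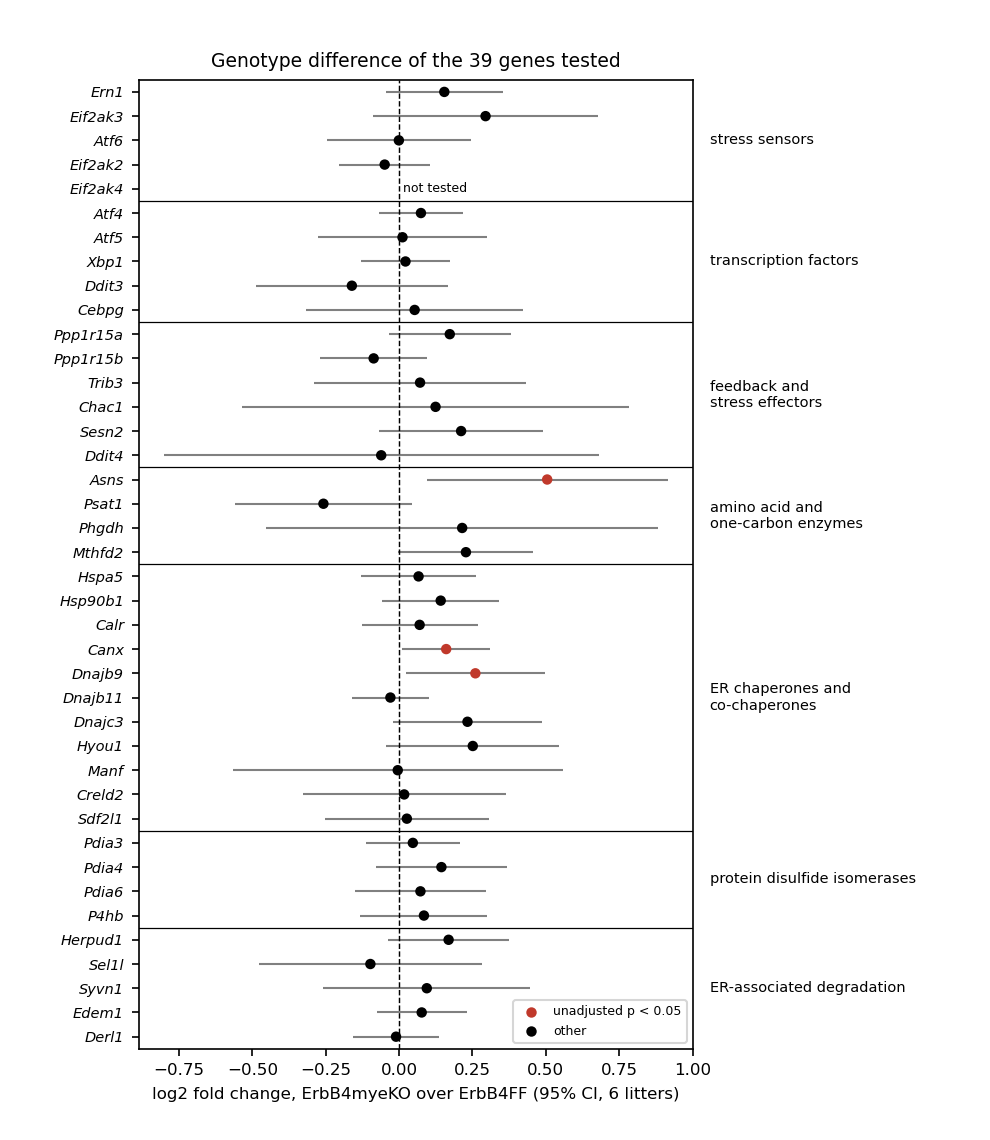
Log2 fold change of ErbB4myeKO over ErbB4FF for the 39 genes tested, grouped by role, with 95% intervals from limma (6 litters). The intervals of Asns, Canx and Dnajb9, in red, lie above 0 and all other intervals reach 0.

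The sign of the difference leaned towards ErbB4myeKO. In 29 of the 39 genes the fitted log2 fold change was above 0, where 49.8% of all genes were, and the median over the 39 was 0.07, beside 0.00 over all genes. In single litters the median of the 39 ratios had an SD of 0.16 (n = 6 litters), more than its size. The count was 29 of 39 as well after rescaling by median ratios or centring by transcript length, and 26 of 39 with a stand-in for sex in the fit, where the median fell to 0.04. The genes share their libraries and many share regulators, so their signs are not independent and no test was made over the list. By role, values above 0 were found in 2 of 4 sensors, 4 of 5 transcription factors, 4 of 6 effectors, 3 of 4 enzymes, 9 of 11 chaperones, 4 of 4 disulfide isomerases and 3 of 5 degradation genes. The 8 genes with an ERSE upstream were all above 0, with a median of 0.08.

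The lean was largest in litters 2 and 6. In litter 2 the log2 ratio of littermates was above 0 for 31 of the 39 genes (52% of all genes), with a median of 0.36, and in litter 6 for 34 of 39 (52.2% of all genes), with a median of 0.24. The same 2 litters led in other genes, as 58 and 57 of 76 other genes of these pathways were above 0 in litters 2 and 6 (medians 0.30 and 0.17), and 15 of 18 cytosolic aminoacyl-tRNA synthetases in each (medians 0.36 and 0.33). In litters 1, 3, 4 and 5 the counts for the stress genes were 18, 21, 22 and 16 of 39, beside 49.6%, 46.6%, 45.9% and 51.9% of all genes, with medians of -0.02, 0.03, 0.01 and -0.02. All 11 chaperones, and 21 of the 39 genes, had their largest ratio in litter 2. The share of all genes that did so is not given here. In litter 2 the chaperone median was 0.54, and in litter 5 3 of the 11 were above 0. The 8 ERSE genes were above 0 in 8, 8 and 7 cases in litters 2, 6 and 4, in 5 and 3 in litters 1 and 3, and in 0 of 8 in litter 5.

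Without litter 2, 24 of 39 genes were above 0 (48.7% of all genes in that fit), with a median of 0.04, and Asns alone had an unadjusted p under 0.05 (4.69% of all genes), as it did without litter 4 (5.21% of all genes). Without litter 3, 31 of 39 were above 0 (52.5% of all genes), with a median of 0.12, and Asns, Hyou1 and Psat1, the last of them lower, had an unadjusted p under 0.05 (9.68% of all genes). Without litter 5, 32 of 40 were above 0 (49.6% of all genes), with a median of 0.11, and Asns, Canx, Dnajb9, Dnajc3 and Mthfd2 had an unadjusted p under 0.05 (9.92% of all genes). Without litter 6, 28 of 40 were above 0 (48.5% of all genes), with a median of 0.06, and 2 other genes, Ppp1r15a and Ppp1r15b, had an unadjusted p under 0.05 in place of the 3 (5.82% of all genes). Eif2ak4 passes the filter in the latter 2 fits, which then hold 40 genes.

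**Figure D3:**
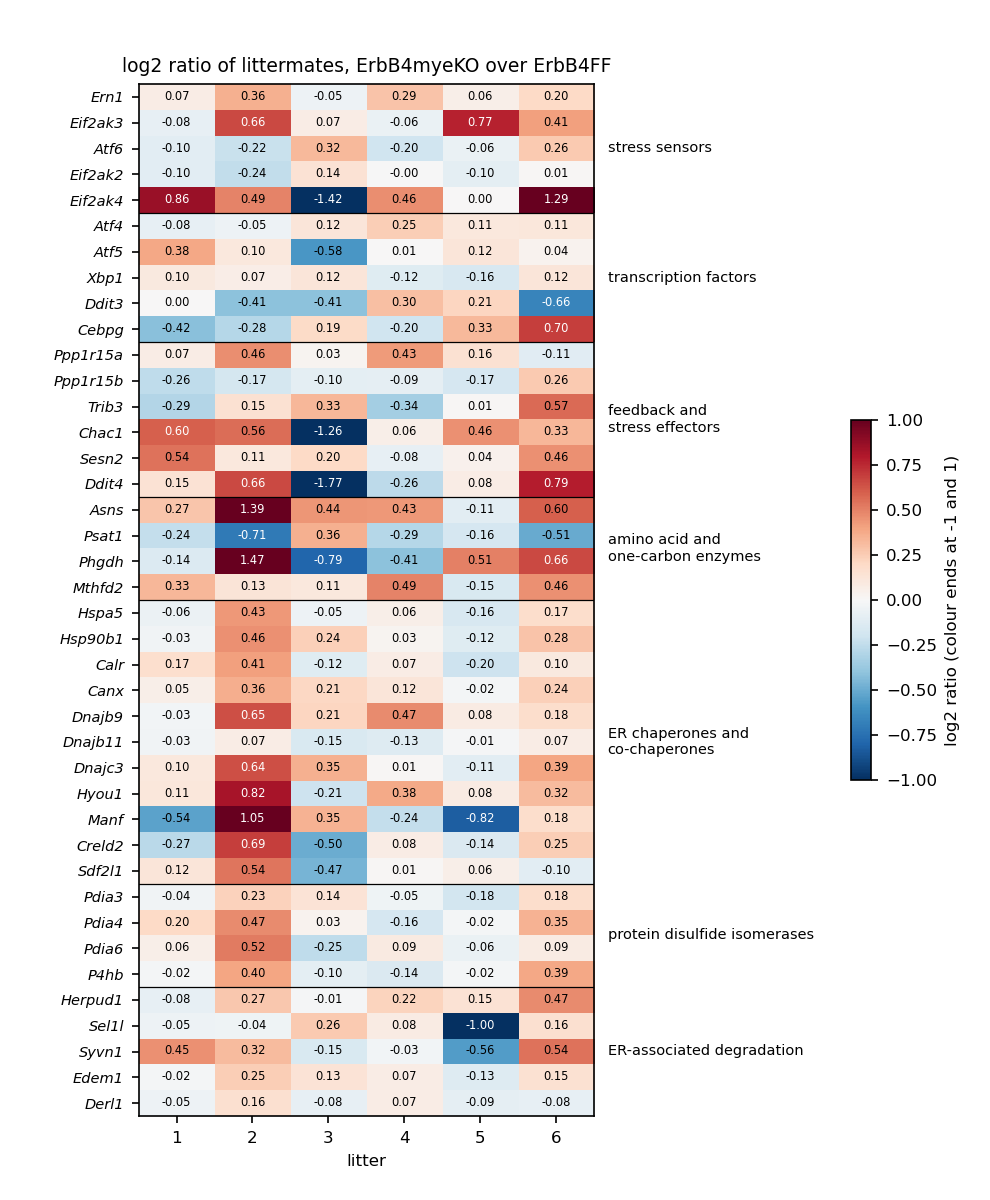
Log2 ratio of littermates (ErbB4myeKO over ErbB4FF) for the 40 genes in litters 1 to 6, grouped by role, with the value printed in each cell and colour from blue (lower) to red (higher). The columns of litters 2 and 6 are mostly red, most of all among the chaperones of litter 2, and litters 1, 3, 4 and 5 are mixed.

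Levels of M1, proliferating cell and plasma cell genes are given beside these ratios. The study's own set of 18 M1 genes, of which 16 were tested, had median log2 ratios of 0.19, 1.99, -0.12, 0.86, -0.01 and 0.22 in litters 1 to 6, and litter 2 was highest in this set as in the chaperones, while litter 4 was second in the M1 set and near 0 in the stress genes. The 6 tested of 8 markers of proliferating cells had medians of -0.40, 0.45, -0.30, -0.28, 0.20 and 0.21, with 3 of 6 above 0 in the fit. Litter 2 was highest, as in the stress genes. Litters 5 and 6 were alike, where the stress genes had medians of -0.02 and 0.24. Mki67 among the markers was higher in 5 of 6 litters (unadjusted p of 0.0201 in limma, adjusted p = 0.603). Cdk1, Birc5 and Aurkb went the other way, with mean log2 ratios of -0.22, -0.17 and -0.17. The 10 B and plasma cell markers, listed because the ER of plasma cells is large, had a sum of 7.11 to 42.4 TPM in ErbB4myeKO (median 11.9) and 10.2 to 21.2 TPM in ErbB4FF (median 13.6), and 5 of them were at or below 1 TPM in all libraries. The 2 that were tested went opposite ways in the fit. Their median log2 ratios were 0.73, 0.44, -0.02, -0.27, 0.59 and 1.15 in litters 1 to 6, and both were above 0 in litters 2, 5 and 6. Jchain was 0.276 to 22.6 TPM in ErbB4myeKO (median 1.92) and 0 to 4.83 TPM in ErbB4FF (median 0.932). It was higher in 5 of 6 litters (unadjusted p of 0.0174 in limma, adjusted p = 0.603), with its highest value in litter 6. Sdc1 was 6.33 to 25.3 TPM in ErbB4myeKO (median 10.6) and 9.75 to 18.6 TPM in ErbB4FF (median 11.4), higher in 3 of 6 litters. The part of these levels in the ratios of the stress genes was not tested.

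None of the 4 sensors tested had an unadjusted p under 0.05 for genotype in limma, which 8.21% of all genes had. Ern1 was between 8.04 and 15.3 TPM in ErbB4myeKO (median 11.2) and between 7.68 and 14.5 TPM in ErbB4FF (median 10.2). It was higher in the ErbB4myeKO littermate in 5 of 6 litters, with litter 3 the exception, at a log2 fold change of 0.15 (SE 0.09, exact permutation p = 0.0625, unadjusted p of 0.113 in limma, adjusted p = 0.639). Eif2ak3 was much lower, at 2.04 to 4.29 TPM in ErbB4myeKO (median 3.40) and 1.18 to 3.59 TPM in ErbB4FF (median 2.48), and its log2 fold change of 0.29 had an interval from -0.09 to 0.68. Its littermate ratio was 0.77 in litter 5, 0.66 in litter 2 and 0.41 in litter 6, and close to 0 in litters 1, 3 and 4.

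Atf6 was 5.93 to 12.0 TPM in ErbB4myeKO (median 10.4) and 6.22 to 13.9 TPM in ErbB4FF (median 9.75), and its log2 fold change was 0.00 with an interval from -0.25 to 0.25. Eif2ak2, an interferon-induced gene, was the most abundant sensor, at 31.6 to 80.7 TPM in ErbB4myeKO (median 76.0) and 33.9 to 91.2 TPM in ErbB4FF (median 75.3). Its log2 fold change of -0.05 had an interval from -0.20 to 0.11. Eif2ak4 was near the limit of the table, at 0 to 2.44 TPM in ErbB4myeKO (median 1.05) and 0 to 1.94 TPM in ErbB4FF (median 0.835), and was not fitted. It was listed at 0 in both libraries of litter 5 and in 1 further ErbB4FF library, that of litter 6. Its ratios had the largest SD of the 40 genes, 0.94.

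Levels of the transcription factor mRNAs were as close between the genotypes as those of the sensors. Atf4, whose translation rather than transcription is the main point of control, was at 132 to 230.1 TPM in ErbB4myeKO (median 152) and at 112 to 214 TPM in ErbB4FF (median 149). Its log2 fold change of 0.07 had an SE of 0.06 and an interval from -0.07 to 0.22. Xbp1 was at 60.6 to 101 TPM in ErbB4myeKO (median 94.1) and 56.6 to 106 TPM in ErbB4FF (median 92.3), with a log2 fold change of 0.02 and an interval from -0.13 to 0.17. The table holds 1 Xbp1 transcript, with an open reading frame of 267 codons, which is the unspliced form, so that these TPM do not report how much of Xbp1 had been spliced by IRE1α.

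Ddit3, which encodes the proapoptotic factor CHOP, was at 23.0 to 56.7 TPM in ErbB4myeKO (median 35.2) and 28.8 to 63.2 TPM in ErbB4FF (median 39.5). The ratios went both ways, -0.41, -0.41 and -0.66 in litters 2, 3 and 6 and 0.30 and 0.21 in litters 4 and 5, with a log2 fold change of -0.16 (SE 0.14). A second Ensembl gene of the same symbol was at 0 in all libraries. Atf5, a factor of the mitochondrial branch, was at 11.3 to 25.2 TPM in ErbB4myeKO (median 15.0) and 10.5 to 23.7 TPM in ErbB4FF (median 15.6). Cebpg, a partner of ATF4, was at 6.58 to 12.4 TPM in ErbB4myeKO (median 10.5) and 7.11 to 11.5 TPM in ErbB4FF (median 9.07). Log2 fold changes of 0.01 for Atf5 and 0.05 for Cebpg were smaller than their SEs of 0.12 and 0.16.

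Of the 6 feedback genes and stress effectors, 0 reached an unadjusted p under 0.05, which 8.21% of all genes did. Ppp1r15a and Ppp1r15b encode the inducible (GADD34) and the constitutive (CReP) subunit that bring a phosphatase to eIF2α and so undo the block of translation. Ppp1r15a was higher in the ErbB4myeKO littermate in 5 of 6 litters (log2 fold change 0.17, SE 0.09) and Ppp1r15b lower in 5 of 6 (log2 fold change -0.09, SE 0.08). Litter 6 was the exception for both, at -0.11 and 0.26. Sesn2, which holds back mTORC1, was higher in 5 of 6 litters (log2 fold change 0.21, SE 0.12), and Trib3, a pseudokinase that represses ATF4 targets, had a log2 fold change of 0.07 (SE 0.15).

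Chac1 and Ddit4 were the effectors with the widest spread of littermate ratios. Chac1, which degrades glutathione, was at 0.310 to 2.70 TPM in ErbB4myeKO (median 1.16) and 0.421 to 2.04 TPM in ErbB4FF (median 1.12). It was higher in the ErbB4myeKO littermate in 5 litters and lower, by a log2 ratio of -1.26, in litter 3. Ddit4, another inhibitor of mTORC1, was at 1.43 to 9.06 TPM in ErbB4myeKO (median 6.59) and 3.81 to 8.56 TPM in ErbB4FF (median 5.88). Its ratio was -1.77 in litter 3 and between -0.26 and 0.79 in the other litters. The intervals of their log2 fold changes, -0.54 to 0.78 and -0.80 to 0.68, left changes of either sign possible.

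Asns (ENSMUSG00000029752, chromosome 6, 7675169 to 7693254), which makes asparagine and is a classical ATF4 target with a CARE upstream, had the largest log2 fold change and the smallest p of the 39 genes. It was at 6.58 to 51.6 TPM in ErbB4myeKO (median 17.9) and 4.74 to 37.8 TPM in ErbB4FF (median 15.8). The ranges overlapped almost fully, since litters differed more than genotypes: both littermates were highest in litter 3 (51.6 and 37.8 TPM) and lowest in litter 4 (6.58 and 4.74 TPM). Within litters the log2 ratios were 0.27, 1.39, 0.44, 0.43, -0.11 and 0.60, above 0 in 5 of 6, and the fitted log2 fold change was 0.50 (SE 0.18, interval 0.09 to 0.92, unadjusted p of 0.0224 in limma, adjusted p = 0.603). The exact permutation p was 0.0625. With a litter left out the limma p of Asns was between 0.00882 and 0.0428, except without litter 6, where it was 0.0548. Without litter 2 its log2 fold change was 0.33.

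The other 3 enzymes of this group differed in sign. Mthfd2, of mitochondrial one-carbon metabolism, had a log2 fold change of 0.23 (SE 0.10, exact permutation p = 0.125, unadjusted p of 0.0519 in limma, adjusted p = 0.603) and was higher in 5 of 6 litters. Psat1, the second enzyme of serine synthesis, was lower in 5 of 6 litters at -0.26 (SE 0.13, unadjusted p of 0.0842 in limma). Its value was -0.38 without litter 3 (unadjusted p of 0.00572 in limma, adjusted p = 0.515) and -0.28 with levels centred by transcript length (unadjusted p of 0.0482 in limma, adjusted p = 0.608). Phgdh, the first enzyme of that route, was at 1.99 to 11.1 TPM in ErbB4myeKO (median 6.96) and 1.63 to 9.45 TPM in ErbB4FF (median 5.35), with ratios from -0.79 in litter 3 to 1.47 in litter 2. Of the 31-base words of the Phgdh transcript, 73.5% also occur in transcripts of other genes, so that its level rests on how kallisto divided shared reads.

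Chaperones held the other 2 genes with a small unadjusted p. Dnajb9 (ERdj4; ENSMUSG00000014905, chromosome 12, 44205559 to 44210326), a BiP co-chaperone that also keeps IRE1α inactive and is a known XBP1 target, was at 16.4 to 49.9 TPM in ErbB4myeKO (median 36.5) and 15.5 to 37.4 TPM in ErbB4FF (median 27.8). Its ratios were 0.65, 0.47, 0.21, 0.18 and 0.08 in litters 2, 4, 3, 6 and 5 and -0.03 in litter 1, with a log2 fold change of 0.26 (SE 0.10, unadjusted p of 0.0348 in limma, adjusted p = 0.603). Canx (ENSMUSG00000020368, chromosome 11, 50293961 to 50325673), which encodes calnexin, the membrane-bound partner of calreticulin, was at 158 to 294 TPM in ErbB4myeKO (median 217) and 161 to 229 TPM in ErbB4FF (median 192). Its ratios were 0.36, 0.24, 0.21, 0.12 and 0.05 in litters 2, 6, 3, 4 and 1 and -0.02 in litter 5, with a log2 fold change of 0.16 (SE 0.06, unadjusted p of 0.0392 in limma, adjusted p = 0.603). For both genes the exact permutation p was 0.0625. The unadjusted p of both was above 0.05 without litter 2, 3, 4 or 6, and that of Canx also without litter 1.

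**Figure D4:**
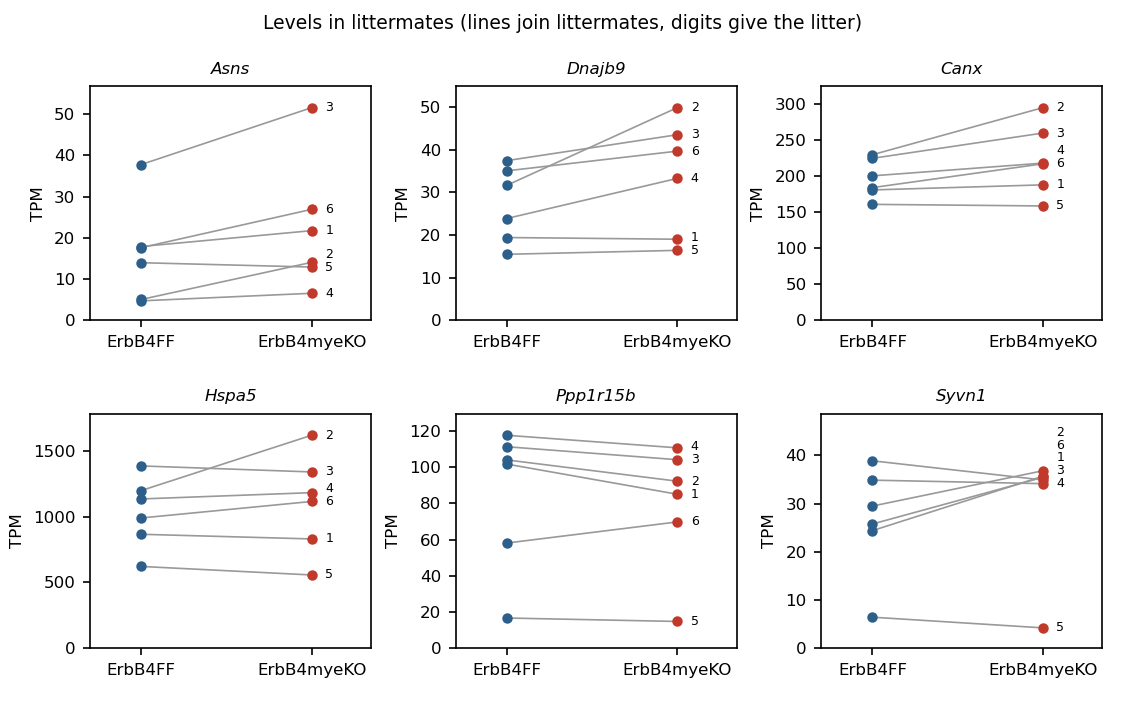
TPM of 6 genes in ErbB4FF (blue) and ErbB4myeKO (red), with a line for each pair of littermates and the litter number at its right end. The lines of Asns, Dnajb9 and Canx slope upward in 5 of 6 litters but start at very different heights, and in Ppp1r15b and Syvn1 both libraries of litter 5 lie far below the rest.

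Of the remaining chaperones, Hyou1 (GRP170, the nucleotide exchange factor of BiP) and Dnajc3 (p58IPK, a co-chaperone) had log2 fold changes of 0.25 (SE 0.13) and 0.23 (SE 0.11), each higher in 5 of 6 litters, and 0.14 and 0.15 without litter 2. Hspa5, Hsp90b1 and Calr had 0.07, 0.14 and 0.07 with SEs of 0.08, 0.09 and 0.08. Without litter 2 Hspa5 had -0.01, Hsp90b1 0.08 and Calr 0.00. Hspa5 was higher in the ErbB4myeKO littermate in 3 of 6 litters, and 0.43 in litter 2 was its largest ratio. Dnajb11 (ERdj3) was among the most even of the 40 genes, with ratios between -0.15 and 0.07 and a log2 fold change of -0.03 (interval -0.16 to 0.10). Creld2 and Sdf2l1, both soluble ER proteins, and Manf, a secreted BiP cofactor, had log2 fold changes of 0.02, 0.03 and 0.00, and ratios of 0.69, 0.54 and 1.05 in litter 2 alone. Without litter 2 the log2 fold changes of these 3 genes were -0.12, -0.08 and -0.22.

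The 4 disulfide isomerases, which form and rearrange disulfide bonds, were all slightly above 0. Pdia3, Pdia4, Pdia6 and P4hb had log2 fold changes of 0.05, 0.14, 0.07 and 0.08 with SEs of 0.07, 0.10, 0.10 and 0.09, and each was above 0 in litters 2 and 6 and below 0 in litter 5. In that order they were higher in 3, 4, 4 and 2 of 6 litters. Of the genes of ER-associated degradation, which sends misfolded proteins to the proteasome, Herpud1 had the largest value in the main fit, 0.17 (SE 0.09, higher in 4 of 6 litters). With the stand-in for sex Herpud1 had 0.04 and Syvn1 0.05. Edem1, which selects glycoproteins for disposal, and Derl1, a channel component, had 0.08 (SE 0.07) and -0.01 (SE 0.06). Sel1l (ENSMUSG00000020964, chromosome 12, 91806043 to 91849157) and Syvn1 (ENSMUSG00000024807, chromosome 19, 6046576 to 6053712) encode the adaptor and the ubiquitin ligase HRD1 of one complex, and had -0.10 (SE 0.16) and 0.09 (SE 0.15), with ratios of -1.003 and -0.56 in litter 5, where both genes were low.

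Transcripts of 1 gene could differ where the table holds several, which is so for 9 of the 40 genes. The principal Syvn1 transcript (75.3% of the gene's TPM) had a log2 fold change of 0.32 (SE 0.12, unadjusted p of 0.0378 in limma, adjusted p = 0.685 over all transcripts tested) and the other one -0.58 (SE 0.39). A longer Hspa5 transcript with 0.422% of the gene's TPM had 0.58 (SE 0.16, unadjusted p of 0.00933 in limma, adjusted p = 0.685) where the main one had 0.06. Of the 31-base words of these 4 transcripts, 68.7% to 98.2% are shared within the gene, so the division between them is uncertain. In Atf5 the main transcript had 0.46 (SE 0.36) and the other one -1.19 (SE 0.70). The main Dnajb11 transcript had -0.01 (SE 0.06), and one with 1.20% of the gene's TPM had -0.99 (SE 0.44).

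Levels of these genes differed more between litters than between littermates. In an F test of litter in the same limma fit, 29 of the 39 genes differed between litters at an adjusted p under 0.05, where 44.9% of all genes did. The SD of the litter means was larger than that of the littermate ratios for 29 of the 39 genes (74.4%) and for 55.7% of all genes, with medians of 0.40 and 0.25 (log2) for the 39. Derl1 was the steadiest gene, with 1.33-fold between its lowest and highest library, and Asns the least steady, at 10.9-fold. Without litter 5 the count of genes that differed between litters was 12 of 40, and the share of all genes was 11.5%. With the stand-in for sex it was 11 of 39, and the share of all genes was 8.29%. The stand-in is an added term beside the litter block, and its part in the lower count was not tested.

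Litter 5 lay outside the other 10 libraries in many genes of the series, with these among them. In both of its libraries 13 of the 39 genes were below every other library (19.9% of all genes) and 5 were above every other library (20.2% of all genes). The low genes were the sensors Ern1, Atf6 and Eif2ak2, the chaperones Hspa5, Hsp90b1, Canx, Dnajb9, Dnajb11, Dnajc3 and Hyou1, the phosphatase subunit Ppp1r15b, and Sel1l and Syvn1. Ppp1r15b (ENSMUSG00000046062, chromosome 1, 133131143 to 133139783) was at 14.7 TPM in ErbB4myeKO and 16.6 TPM in ErbB4FF of litter 5 and between 58.1 and 118 TPM elsewhere. Syvn1 was at 4.18 and 6.40 TPM against 24.4 to 38.9 TPM, and Sel1l at 4.47 and 9.46 TPM against 27.1 to 36.5 TPM. For all 3 genes both libraries of litter 5 lay below the range of the other 10.

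The high genes of litter 5 were Atf4, Sesn2, Ddit4, Psat1 and Sdf2l1. Psat1 (ENSMUSG00000024640, chromosome 19, 15904678 to 15947337) was at 153 TPM in ErbB4myeKO and 172 TPM in ErbB4FF, and between 42.0 and 95.5 TPM in the other litters. Atf4 was at 230.1 and 214 TPM and between 112 and 182 TPM elsewhere. Asns, the ATF4 target described above, was not among them, at 12.9 and 13.99 TPM, within the range of the other litters.

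The values of litter 5 varied with transcript length across all genes. Against the other litters, the median gene of litter 5 was 0.67 higher (log2) among the 2195 genes with the shortest transcripts and stood at -0.58 among the 2195 with the longest (Pearson r = -0.48 across 8780 genes, which share the libraries). Across the 39 genes r was -0.58 in litter 5, and it was -0.55 in litter 6 and between 0.26 and 0.50 in litters 1 to 4. In litter 5 Syvn1, with 3.16 kb, lay at -2.55, Ppp1r15b, with 5.59 kb, at -2.54, and Sel1l, with 6.30 kb, at -2.18, below the median of genes of like length. In that litter 5 of the 39 genes lay below -1, beside 14.2% of all genes. With the levels centred by transcript length, 22 of 39 genes differed between litters, beside 32.1% of all genes. The part of transcript length in the levels of single genes was not tested further.

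**Figure D5:**
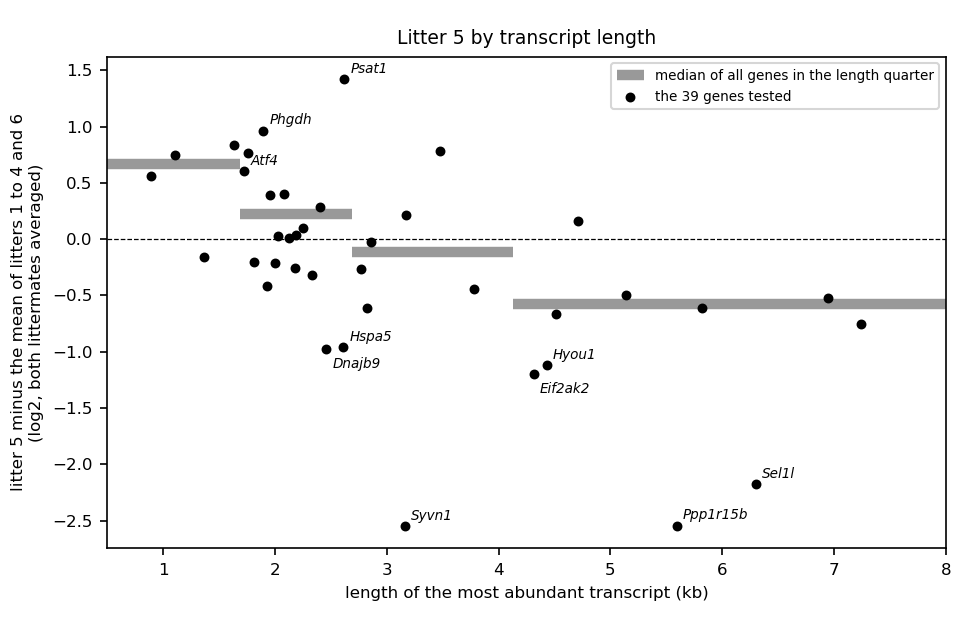
Level of litter 5 minus the mean of litters 1 to 4 and 6 (log2, both littermates averaged) against the length of the most abundant transcript for the 39 genes (points), with the median of all tested genes in each of 4 length classes (grey bars, the last of which reaches beyond the axis). The bars fall from 0.67 to -0.58, Psat1 lies at 1.42, and Syvn1, Ppp1r15b and Sel1l lie far below the bars.

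The 4 amino acid and one-carbon enzymes did not share 1 order of litters. Asns and Mthfd2 were each highest in litter 3 and lowest in litter 4, with 2.87 and 1.90 (log2) between these litters, and Mthfd2 was at 57.9 and 53.7 TPM in litter 3 and 17.4 and 12.2 TPM in litter 4. Psat1 and Phgdh were highest in litter 5, as was Atf4, and lowest in litters 1 and 4, respectively. Among the chaperones the highest litter was most often litter 2, as for Hspa5, Hsp90b1, Canx, Dnajb11, Dnajc3 and Hyou1, and the lowest was litter 5 for these 6 and for Dnajb9.

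Beyond the 40 genes, 88 others of the same pathways were listed, of which 76 were tested. At an unadjusted p under 0.05 there were 5 higher and 2 lower in ErbB4myeKO (3.83% and 4.38% of all genes), with a median log2 fold change of 0.08, and 0 passed an adjusted p of 0.05. With a litter left out the count of 7 became 2 without litter 4 or 6, 4 without litter 2, 11 without litter 5 and 12 without litter 3, in fits where 5.21%, 5.82%, 4.69%, 9.92% and 9.68% of all genes had such a p. Nupr1 (ENSMUSG00000030717, chromosome 7, 126623249 to 126630861), a stress-induced chromatin factor downstream of ATF4, was at 152 to 324 TPM in ErbB4myeKO (median 215) and 169 to 516 TPM in ErbB4FF (median 305). It was the lower of the littermates in 6 of 6 litters, with a log2 fold change of -0.40 (SE 0.10, exact permutation p = 0.0312, unadjusted p of 0.00394 in limma, adjusted p = 0.603). Creb3, a membrane-bound factor akin to ATF6, was at 20.8 to 32.7 TPM in ErbB4myeKO (median 27.5) and 26.8 to 38.8 TPM in ErbB4FF (median 33.2), and was lower in 5 of 6 litters (log2 fold change -0.27, SE 0.08, exact permutation p = 0.0625, unadjusted p of 0.0139 in limma, adjusted p = 0.603). Atf3, of the integrated stress response targets, was at 150 to 529 TPM in ErbB4myeKO (median 204) and 158 to 519 TPM in ErbB4FF (median 270). It was also lower in 5 of 6 litters (log2 fold change -0.27, SE 0.12, exact permutation p = 0.0625, unadjusted p of 0.0555 in limma, adjusted p = 0.603).

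The 5 higher genes were Slc7a11, Map3k5, Mogs, Slc38a2 and Slc7a1. Slc7a11, the cystine transporter, was at 17.7 to 375 TPM in ErbB4myeKO (median 147) and 15.8 to 294 TPM in ErbB4FF (median 60.2), higher in 6 of 6 litters but by 0.14 in litter 1 and 3.04 in litter 2. Its log2 fold change was 0.99 (SE 0.38, exact permutation p = 0.0312, unadjusted p of 0.0327 in limma, adjusted p = 0.603). Map3k5, the kinase ASK1 downstream of IRE1α, had 0.61 (SE 0.22), and Mogs, the first glucosidase of glycoprotein processing, had 0.35 (SE 0.13), each higher in 5 of 6 litters. The amino acid transporters Slc38a2 and Slc7a1, named after their values were seen, had 0.29 (SE 0.11) and 0.44 (SE 0.18).

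By list, an unadjusted p under 0.05, which 8.21% of all genes had, was reached by 2 of 14 genes of sensor control and signalling, 4 of 13 targets of the integrated stress response, 1 of 18 of ER folding, 0 of 15 of ER translocation and export and 0 of 16 of ER-associated degradation. Their median log2 fold changes were 0.06, 0.12, 0.09, 0.04 and 0.08. Other systems were read beside them. Of 15 genes of the heat shock response outside the ER, mostly cytosolic chaperones but with the mitochondrial chaperonins Hspd1 and Hspe1 and the transcription factor Hsf1 among them, 2 had an unadjusted p under 0.05, Hspa1a at -0.50 (SE 0.15) and Dnaja1 at -0.20 (SE 0.07), both lower in 5 of 6 litters and named after their values were seen, and the list median was -0.03. Of 18 cytosolic aminoacyl-tRNA synthetases, several of which are ATF4 targets, Yars and Iars, likewise named afterwards, were higher at 0.34 (SE 0.11) and 0.38 (SE 0.16), with a list median of 0.11 and adjusted p = 0.603 in limma for each of these 4 genes.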

How the data were processed

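RNA was sequenced from M1-activated BM-Mɸs of 6 ErbB4myeKO mice and 6 ErbB4FF littermates as single-end reads of 75 bp. After pseudoalignment in kallisto the authors deposited TPM for principal isoforms of the APPRIS annotation (28808 transcripts of 22243 genes after 405 repeated lines were dropped). The build on the labels is mm10, and versions of kallisto and sleuth are not given in the sources used here. The deposited table also holds p-values, q-values and log2 ratios of the authors' own sleuth comparison, which were not used, and the authors' deposited natural log of normalized estimated counts, averaged over libraries, which was read only as a guide to depth. As the values are TPM, no model of counts was used, and the reads behind each library, about 10 M per the study's methods, cannot be read from the values.

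Transcripts of a gene were summed. A gene was tested when its mean over the libraries reached 1 TPM, which 8780 did. A model of genotype with litter as a block was fitted to log2(TPM + 0.5) in limma 3.58.1 (lmFit, eBayes with trend; R 4.3.3). Benjamini-Hochberg adjustment was made over all genes tested. Fold changes are on the log2(TPM + 0.5) scale, which understates the change of low genes. For single genes the genotypes were swapped within litters in all 64 ways (two-sided exact permutation test). Each litter is a separate pair of mice, and the series pairs them by litter. As a check, the log2 values of littermates, centred per gene, correlated at 0.27 to 0.77 in the 6 litters. Python 3.11.15 with pandas 2.3.3, numpy 2.4.6, scipy 1.17.1 and matplotlib 3.10.9 was used otherwise, and the fit was tested on simulated data.

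GENCODE M21 gave positions and transcript lengths and RefSeq gave promoter windows. The 40 genes, the other lists and the tests were chosen with earlier results of these data known. All 40 genes are named, with full values for sensors, transcription factors, the 3 smallest p, the 3 largest SDs of the ratios and the 3 highest and 3 lowest levels, and of the other pathway genes those with p under 0.01 or else the 3 smallest p in each direction. The alternatives were no replicate block, a stand-in for sex from 4 Y-linked genes, pseudocounts of 0.1 and 1, a filter at 5 TPM and none, libraries rescaled by median ratios, limma fitted without the trend, the most abundant transcript alone and each litter left out in turn. The F test of litter, the count by sign and the centring of levels in 20 bins of transcript length were chosen after seeing the data.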

Additional observations from a re-analysis of the deposited data

Results flagged for a closer look

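For each of the 40 genes the 6 libraries of each genotype and the 6 littermate ratios were searched for a value far from the rest (Dixon's test of the gap over the range, at 95%). Of 120 groups 13 held such a value (10.8%), and 10 of the 13 lay in litter 5. Chance gives about 1 in 20, but over all genes tested the share was 11.4%, with 50.3% of these values in litter 5, so the count for the 40 genes is near that of all genes.

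The ubiquitin ligase complex of the ER stood out most. In litter 5 Syvn1 was at 4.18 TPM in ErbB4myeKO, where the other 5 libraries had 34.1 to 36.8 TPM, and at 6.40 TPM in ErbB4FF, where the others had 24.4 to 38.9 TPM. Sel1l was at 4.47 TPM in ErbB4myeKO (others 28.3 to 35.4 TPM) and 9.46 TPM in ErbB4FF (others 27.1 to 36.5 TPM), and its littermate log2 ratio was -1.003 where the other litters had -0.05 to 0.26.

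Of the kinases and phosphatases that act on eIF2α, Eif2ak2 was at 31.6 TPM in ErbB4myeKO of litter 5 (others 64.7 to 80.7 TPM) and 33.9 TPM in ErbB4FF (others 64.1 to 91.2 TPM). Ppp1r15b was at 14.7 TPM in ErbB4myeKO (others 69.8 to 111 TPM) and 16.6 TPM in ErbB4FF (others 58.1 to 118 TPM). Its littermate log2 ratio was 0.26 in litter 6 and between -0.26 and -0.09 in the other litters.

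Psat1 was the gene with a high value in litter 5, at 153 TPM in ErbB4myeKO (others 42.0 to 67.0 TPM). Outside litter 5, P4hb was at 174 TPM in ErbB4FF of litter 1 (others 225 to 240.2 TPM), and the littermate log2 ratio of Chac1 was -1.26 in litter 3 (others 0.06 to 0.60).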

How the results depend on the processing

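Over 16 alternatives the 39 genes tested gave 619 log2 fold changes, of which 587 kept their sign and their side of an adjusted p of 0.05, and 32 of 13 genes changed sign, 24 of them with a litter left out. Each of the 13 had a log2 fold change below 0.22 in size, so the sign of such genes is not fixed by these data. With no replicate block, which ignores the pairing of littermates, 0 genes of the 40 and 0 of the other pathway genes had an unadjusted p under 0.05 (3 and 7 with it), and with a stand-in for sex the counts were 0 and 2. With that stand-in 11 of 39 genes differed between litters (8.29% of all genes). With a litter left out, between 1 and 5 of the 40 genes and between 2 and 12 of the other pathway genes had an unadjusted p under 0.05 (4.69% to 9.92% of all genes), between 0 and 5 of the 40 lay on one side in all remaining litters (6.43% to 11.2% of all genes), between 12 and 30 differed between litters (11.5% to 46.5% of all genes), and between 0 and 1 of all genes passed an adjusted p of 0.05. The 1 gene, not among the 40, passed without litter 3 (adjusted p = 0.0490).

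With a litter left out, the log2 fold change ran from -0.0754 to 0.147 for Cebpg, -0.0276 to 0.154 for Trib3, -0.117 to 0.120 for Creld2, -0.0654 to 0.0435 for Atf6, -0.215 to 0.159 for Manf, -0.0626 to 0.130 for Atf5, -0.0352 to 0.417 for Phgdh, -0.0072 to 0.112 for Hspa5, -0.0757 to 0.125 for Sdf2l1, -0.0164 to 0.138 for Pdia6, -0.231 to 0.281 for Ddit4, -0.0450 to 0.00562 for Derl1 and -0.170 to 0.0833 for Sel1l. The stand-in for sex gave -0.101 for Cebpg, -0.0175 for Trib3 and -0.128 for Creld2, and the most abundant transcript alone gave -0.0288 for Cebpg. Values at 0 changed sign with a pseudocount of 0.1 (0.000302 for Atf6) or 1 (0.000598 for Manf) and with centring by transcript length (0.00453 for Manf and -0.00782 for Atf5). The causes of these shifts were not tested. Precision rests on 6 litters, and genes near 1 TPM, such as Chac1 and Eif2ak4, are the least certain.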
